A study of Mus musculus with 4 samples.

Results

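The 10 genes described here encode secreted proteins of lymphoid cells: the interleukins Il17a, Il17f, Il2, Il3, Il6, Il9, Il10 and Il21, the colony-stimulating factor Csf2 (GM-CSF), and the epidermal growth factor family member amphiregulin (Areg). They were picked by name from the 30731 genes listed for all 4 mouse RNA-seq libraries, and each name matched a single Ensembl gene. MNK-3, with 2 libraries, is a wild-type cell line labelled ILC3-like, derived from NIH-Swiss thymocytes of fetal day 15 and grown in IL-7 and IL-15 at 10 ng/ml. The ILC2 library came from the bone marrow of pooled wild-type C57BL/6 mice of 8 to 12 weeks, and the cells had been expanded with the alarmins IL-25 and IL-33 plus IL-2 and IL-7, at 10 ng/ml. The NK library, labelled ILC1 (NK cell), came from the spleen of pooled wild-type C57BL/6 mice of 8 to 12 weeks, and no cytokine is named for it. Cell type, tissue and culture (and, for MNK-3, strain) changed together, so they cannot be told apart in any comparison. The number of genes listed, 31053 for MNK-3 and 53465 for ILC2 and NK, likewise changed with every comparison of MNK-3.

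Innate lymphoid cells answer tissue signals by secreting cytokines, and the groups differ in which ones they make. Group 2 cells respond to such alarmins with the type 2 cytokines IL-5 and IL-13, and in mice also with IL-9, GM-CSF, IL-6 and amphiregulin. Group 3 cells respond to IL-23 and IL-1β with IL-22, IL-17A and IL-17F, and NK cells are known for interferon-γ and cytotoxic granules. Many cytokine messages are short-lived: AU-rich elements in the 3′ untranslated region (UTR) recruit proteins that speed their decay, so a steady-state level reads both synthesis and decay.

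Levels are given as read counts over the shared genes, per 1e6 reads (CPM), scaled by trimmed means of M values (TMM). Reads in the shared genes came to 25617762 and 15177345 in MNK-3 replicates 1 and 2, 9298162 in ILC2 and 4637812 in NK, so 3 reads, the one-sided 95% upper limit that a count of 0 allows, stand for 0.0844, 0.232, 0.395 and 0.625 CPM in that order. Intervals, given for counts above 0, are exact two-sided Poisson intervals at 95%, and both cover counting error alone. MNK-3 replicate 1 stood apart: 75.8% of its reads fell outside annotated genes, against 24.3% in replicate 2, 23.1% in ILC2 and 47.1% in NK, and 95.6% of the shared genes had a read in it, against 69.6% to 76.0% in the other 3 libraries. The labelled identities were read from marker lists. The 7 ILC3 markers summed to 1614 and 3812 CPM in MNK-3, 520 CPM in ILC2 and 98.7 CPM in NK, the 6 ILC2 markers to 109 and 119 CPM in MNK-3, 5098 CPM in ILC2 and 218 CPM in NK, and the 6 NK markers to 57.4 and 81.4 CPM in MNK-3, 20.1 CPM in ILC2 and 5442 CPM in NK. Of the ILC2 markers, Gata3, Il1rl1 and Il13 each had over 1000 CPM in ILC2, and the other 3 were each higher in another library: Il17rb had 18.6 and 2.94 CPM in MNK-3, against 4.87 CPM in ILC2, Hey1 had 5.71 and 4.79 CPM in MNK-3, against 5.14 CPM in ILC2, and Klrg1 had 25.4 CPM in ILC2 and 86.6 CPM in NK.

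Among the 10 genes, 4 stood high in ILC2 and in no other library: Areg, Csf2, Il6 and Il9 each had over 100 CPM there and under 10 CPM elsewhere. The 10 genes together summed to 32.1 and 20.02 CPM in MNK-3, 481 CPM in ILC2 and 13.1 CPM in NK. All 10 had a read in MNK-3 replicate 1, whereas 3 had none in replicate 2, 2 had none in ILC2 and 2 had none in NK. Outside ILC2, Il10 in MNK-3 replicate 1 was the 1 gene of the 10 to reach 10 CPM. In bulk RNA, fewer cells that express a gene and less of its RNA per cell cannot be told apart.

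**Figure D1:**
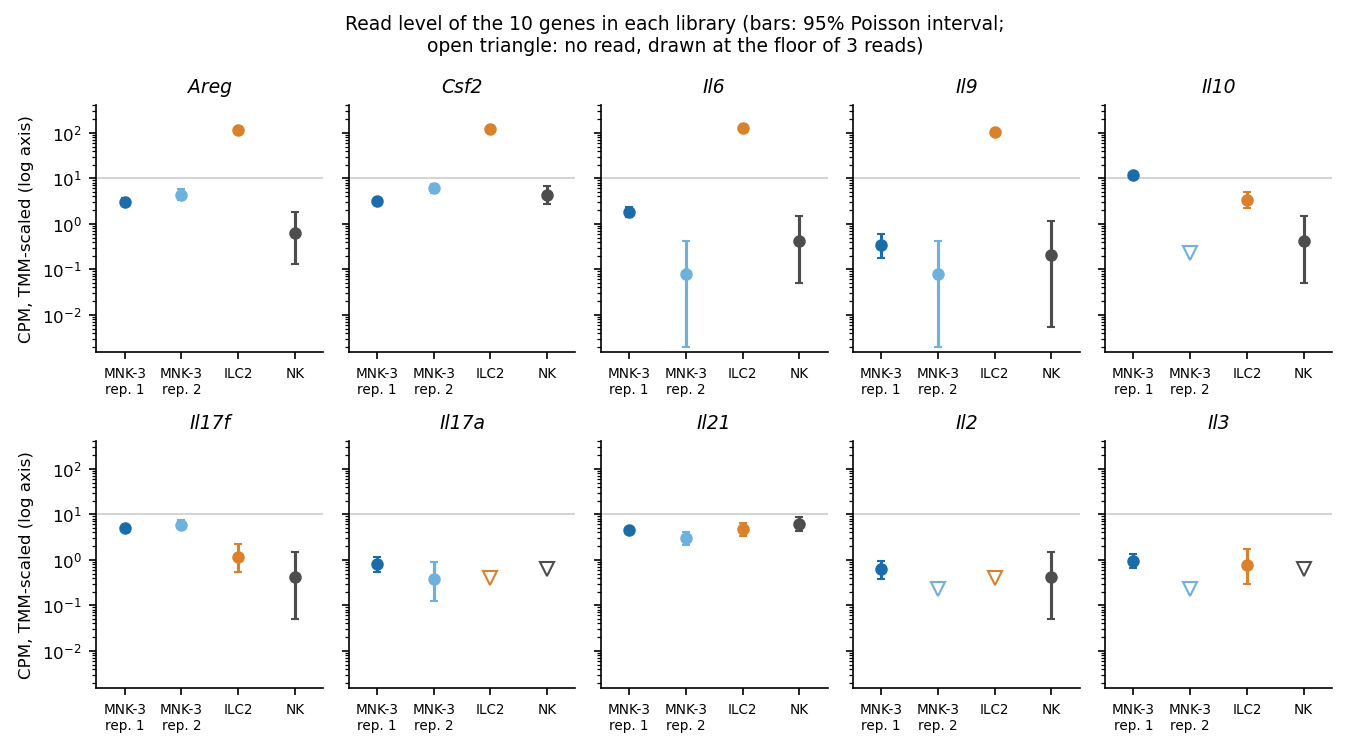
TMM-scaled CPM of the 10 genes (log axis) in MNK-3 replicates 1 and 2, ILC2 and NK; points are single libraries, bars are 95% Poisson intervals, open triangles are libraries with no read, drawn at the floor of 3 reads, and the grey line marks 10 CPM. Areg, Csf2, Il6 and Il9 lie between 103 and 131 CPM in ILC2 and below 10 CPM in the other libraries.

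Amphiregulin, made as a membrane-bound precursor, binds the epidermal growth factor receptor and is known in ILC2 biology for tissue repair. Areg (ENSMUSG00000029378, chr5:91139599-91148432 on the plus strand of GRCm38) had 109 and 57 reads in MNK-3, 864 in ILC2 and 3 in NK. Those counts correspond to 3.07 CPM (2.52 to 3.70) and 4.41 CPM (3.34 to 5.71) in MNK-3, 114 CPM (106 to 122) in ILC2 and 0.625 CPM (0.129 to 1.83) in NK. The MNK-3 intervals overlapped each other and lay apart from those of both other cell types, so by counting error alone the order was ILC2, MNK-3, NK. The NK level rests on 3 reads, and the fit described next did not call MNK-3 over NK (log2 fold change 2.21, SE 4.16, limma voom adjusted p = 0.9998). ILC2 was 37.1-fold above MNK-3 replicate 1 and 25.8-fold above replicate 2. In limma voom, a linear model over all 4 libraries and 25283 genes, Areg fell in MNK-3 relative to ILC2, with a log2 fold change of -5.08 (SE 1.06, 95% interval -7.15 to -3.01, Benjamini-Hochberg adjusted p = 0.00169, two-sided).

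Granulocyte-macrophage colony-stimulating factor drives myeloid cell growth and activation. Csf2 (ENSMUSG00000018916, chr11:54247271-54249667 on the minus strand) had 111 and 79 reads in MNK-3, 929 in ILC2 and 21 in NK. The levels were 3.12 CPM (2.57 to 3.76) and 6.11 CPM (4.84 to 7.61) in MNK-3, 122 CPM (115 to 130) in ILC2 and 4.37 CPM (2.71 to 6.68) in NK. The NK interval overlapped both MNK-3 intervals, which did not overlap each other, so below ILC2 no order between MNK-3 and NK could be read. ILC2 was 39.2-fold above MNK-3 replicate 1 and 20.03-fold above replicate 2. Csf2 fell in MNK-3 relative to ILC2 in limma voom, with a log2 fold change of -5.05 (SE 1.02, 95% interval -7.04 to -3.05, adjusted p = 0.00118). An antisense gene, Gm12223, shares 96 bp of exon with Csf2 and had 25 and 0 reads in MNK-3, 13 in ILC2 and 0 in NK, and since the strand setting of the counting is not given in the sources used here, reads from the shared part cannot be assigned.

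IL-6 is a pleiotropic cytokine of acute inflammation and B cell help. Il6 (ENSMUSG00000025746, chr5:30013114-30019981, plus strand) had 65 and 1 reads in MNK-3, 996 in ILC2 and 2 in NK, which gave 1.83 and 0.0773 CPM in MNK-3, 131 CPM (123 to 140) in ILC2 and 0.416 CPM in NK. The MNK-3 libraries differed 23.7-fold from each other (95% interval 4.10 to 949), with replicate 1 the higher, and both stood far below ILC2. Relative to ILC2 the fitted log2 fold change of MNK-3 was -7.55 (SE 2.33), with an adjusted p of 0.181 in limma voom, which did not pass 0.05. IL-9, a growth factor for mast cells and a survival factor for mouse ILC2, was likewise highest in ILC2. Il9 (ENSMUSG00000021538, chr13:56479277-56482246, minus strand) had 12 and 1 reads in MNK-3, 786 in ILC2 and 1 in NK, or 0.338 and 0.0773 CPM in MNK-3, 103 CPM (96.4 to 111) in ILC2 and 0.208 CPM in NK. Outside ILC2 the 3 intervals of Il9 overlapped, and its count reached the filter's minimum in ILC2 alone, so its test supports nothing. Its fitted log2 fold change of MNK-3 over ILC2 was -8.86 (SE 2.83, limma voom adjusted p = 0.222).

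Across the comparison of MNK-3 with ILC2, limma voom called 2 of the 10 genes lower in MNK-3 and 0 higher, against 0.34% of all 25283 genes called in either direction and 0.332% called lower. The adjusted p was 0.99997 for each of Il17a, Il17f, Il2, Il3, Il10 and Il21. Of these, Il17a, Il2 and Il3 reached the filter's minimum in MNK-3 replicate 1 alone, so their tests support nothing. Areg, Csf2, Il6 and Il9 were lower in MNK-3 by size, that is at least 4-fold on log2(CPM + 0.5) where the higher group reached 10 CPM, against 2.64% of all genes counted lower and 6.41% counted in either direction. Their log2 ratios were -4.75 for Areg, -4.59 for Csf2, -6.50 for Il6 and -7.20 for Il9, while the median of all genes was 0.78 and that of the 10 genes was -0.35. Less the median of all genes, the same ratios were -5.54, -5.37, -7.28 and -7.98. Both medians moved with the MNK-3 library: with replicate 1 alone they were 1.16 for all genes and 0.05 for the 10, with replicate 2 alone 0 and -2.17, and against replicate 2 the ratios were -4.54 for Areg, -4.22 for Csf2, -7.83 for Il6 and -7.49 for Il9. The 4 counted by size whether MNK-3 was taken as replicate 1, replicate 2 or their mean. Il9 reached the filter's minimum in ILC2 alone, so its part in this count by size supports nothing. The calls for Areg and Csf2 held under 5 of 6 other settings of the fit and were lost when the libraries were scaled on abundant genes, with log2 fold changes of -4.47 and -4.37 and an adjusted p of 1.00 for each.

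ILC2 and NK have 1 library each, so their difference has no replicate check and no test. Areg, Csf2, Il6 and Il9 were higher in ILC2 by the size rule, 4 of the 10 genes, against 5.01% of all genes higher and 7.12% in either direction. Among these 4, Il9 reached the filter's minimum in ILC2 alone, so its part in the count supports nothing. The ratio of scaled counts, ILC2 over NK, was 182 for Areg (62.1 to 885), 28.0 for Csf2 (18.2 to 45.4), 315 for Il6 (87.0 to 2605) and 497 for Il9 (89.0 to 19661), with exact intervals for counting error. Apart from Csf2 with its 21 reads in NK, these ratios rest on 1 to 3 NK reads, so they are loosely bounded. The median log2 ratio was 1.73 over the 10 genes and -0.05 over all genes.

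**Figure D2:**
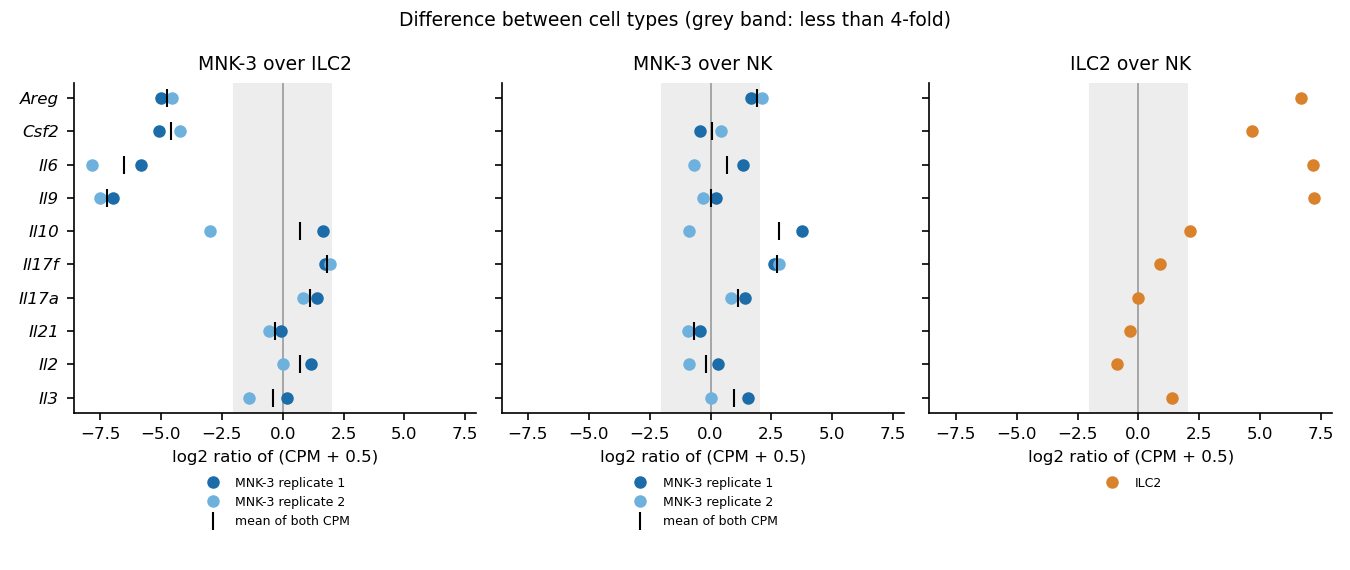
Log2 ratio of CPM + 0.5 for each of the 10 genes in MNK-3 over ILC2, MNK-3 over NK and ILC2 over NK; dark and light blue points are MNK-3 replicates 1 and 2, black ticks their mean, orange points ILC2, and the grey band spans less than 4-fold. Areg, Csf2, Il6 and Il9 lie left of the band in MNK-3 over ILC2 and right of it in ILC2 over NK, and in MNK-3 over ILC2 the Il10 points of the MNK-3 libraries lie on opposite sides of 0.

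Cells other than ILC2 can make these 4 products, mast cells and basophils among them, so their markers were read in the same library. Of 9 mast cell and basophil markers, 5 had no read in ILC2 (Mcpt4, Cpa3, Cma1, Fcer1a and Ms4a2), and the list summed to 32.9 and 3.56 CPM in MNK-3, 13.7 CPM in ILC2 and 173 CPM in NK. Fcer1a and Ms4a2 encode subunits of the high-affinity IgE receptor. The other 4 were read in ILC2: Mcpt8 and Tpsb2 at 2.90 CPM each, their highest level in the 4 libraries, Hdc at 6.06 CPM and Gata1 at 1.84 CPM. In NK, Cma1 made up 154 CPM of the sum. T cell markers (9 genes) summed to 158 and 49.5 CPM in MNK-3, 18.6 CPM in ILC2 and 114 CPM in NK, with no list member at 0 in ILC2. Myeloid markers (9 genes) summed to 32.5 and 3.87 CPM in MNK-3, 25.7 CPM in ILC2 and 241 CPM in NK, where Itgam made up 225 CPM, and stromal markers (5 genes) to 33.4 and 4.48 CPM in MNK-3, 10.7 CPM in ILC2 and 16.9 CPM in NK. B cell markers (5 genes) summed to 24.3 and 1.86 CPM in MNK-3, 49.1 CPM in ILC2 and 4.996 CPM in NK, and 46.1 CPM of the ILC2 sum was Cd79b, with Ms4a1 at 0. The part of these cells in the levels of the 10 genes was not tested.

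The 250 bases upstream of the RefSeq start are shown for Areg, Il6 and Il9, 3 of the genes that stood high in ILC2: Areg because it held a cyclic AMP response element and a TATA box, and Il6 and Il9 because each held an AP-1 match. The sequences are RefSeq's on GRCm38.p6, printed 5′ to 3′ on the gene's own strand, and capitals mark matches, on either strand, to the AP-1 motif TGANTCA, the cyclic AMP response element TGACGTCA and the TATA box TATAAA. The windows are chr5:91139349-91139598 (plus strand) for Areg, chr5:30012864-30013113 (plus strand) for Il6 and chr13:56482258-56482507 (minus strand) for Il9.
Areg: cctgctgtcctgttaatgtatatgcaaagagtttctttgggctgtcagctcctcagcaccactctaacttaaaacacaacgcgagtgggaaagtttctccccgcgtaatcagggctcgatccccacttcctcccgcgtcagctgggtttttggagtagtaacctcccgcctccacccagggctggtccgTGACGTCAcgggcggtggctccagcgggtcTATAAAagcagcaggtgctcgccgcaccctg
Il6: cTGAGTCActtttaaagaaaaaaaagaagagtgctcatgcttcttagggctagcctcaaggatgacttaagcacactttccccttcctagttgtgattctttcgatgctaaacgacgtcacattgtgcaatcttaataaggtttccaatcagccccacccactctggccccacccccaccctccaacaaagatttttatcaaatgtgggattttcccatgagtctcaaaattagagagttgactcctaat
Il9: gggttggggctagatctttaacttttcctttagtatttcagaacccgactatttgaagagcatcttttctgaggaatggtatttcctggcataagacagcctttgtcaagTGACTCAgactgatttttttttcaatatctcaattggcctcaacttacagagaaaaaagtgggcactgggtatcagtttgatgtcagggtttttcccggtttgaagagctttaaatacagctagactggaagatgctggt
Areg held a cyclic AMP response element with its first base at -61 from the start and a TATA box at -31, Il6 an AP-1 match at -249, and Il9 an AP-1 match at -140. Of 32851 RefSeq promoters of this length, 6.75% held the AP-1 motif, 1.55% the cyclic AMP response element and 12.4% the TATA box. Over the 9 of the 10 genes with a window, Il17a, Il6 and Il9 had the AP-1 motif, Areg alone the cyclic AMP response element, and Il17a, Il17f, Il2 and Areg the TATA box. The NFAT core GGAAA was in 8 of the 9 windows, where 55.6% of all promoters hold it, and the NF-κB motif (GGG and CC around 5 free bases) in 7 of 9, where 45.8% do; in Il6 a pair of NF-κB matches, at -44 and -43, overlaps an NFAT core at -39. GATA matches (AGATAA) were in Csf2 and Il3, against 9.99% of promoters, C/EBP matches (TTGCNNAA) in Il6 and Csf2, against 9.56%, and STAT matches (TTCNNNGAA) in 0 of 9, against 7.02%. The Csf2 window starts from a RefSeq start 232 bp upstream of the GENCODE gene start, so it does not hold the bases next to that gene start, and the Il17f start lies 6347 bp inside the GENCODE gene. A match is a description of letters and not a bound site.

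Il17a and Il17f, neighbours 42.6 kb apart on chromosome 1, encode the cytokines by which group 3 cells and Th17 cells call in neutrophils. Il17f (ENSMUSG00000041872, chr1:20777146-20790617, minus strand) had 180 and 77 reads in MNK-3, 9 in ILC2 and 2 in NK. The levels were 5.07 CPM (4.35 to 5.86) and 5.95 CPM (4.70 to 7.44) in MNK-3, 1.19 CPM (0.542 to 2.25) in ILC2 and 0.416 CPM (0.0504 to 1.504) in NK. The MNK-3 replicates overlapped each other and stood 4.27- and 5.02-fold above ILC2, beyond counting error, whereas ILC2 and NK overlapped. The fit did not call the difference: the log2 fold change was 2.08 (SE 3.37) over ILC2 and 3.35 (SE 4.34) over NK, with limma voom adjusted p-values of 0.99997 and 0.9998. Il17a (ENSMUSG00000025929, chr1:20730905-20734496, plus strand) had 29 and 5 reads in MNK-3, 0 in ILC2 and 0 in NK, or 0.816 CPM (0.547 to 1.17) and 0.387 CPM (0.126 to 0.902) in MNK-3. A count of 0 allows up to 0.395 CPM in ILC2 and 0.625 CPM in NK, so Il17a in MNK-3 replicate 2 lay within what those libraries could have missed. Per kb of exon, Il17f was at 2.51 and 2.94 CPM and Il17a at 0.697 and 0.330 CPM in MNK-3, which places Il17f above Il17a in both libraries. Mcm3, a replication licensing gene that lies 12.4 kb from Il17f on its other side, had 372 and 869 CPM in MNK-3, 467 CPM in ILC2 and 95.3 CPM in NK.

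Il2 and Il21, 96.8 kb apart on chromosome 3, encode related cytokines that signal through the common gamma chain and sustain T, B and NK cells. Il21 (ENSMUSG00000027718, chr3:37222759-37232636, minus strand) had 160 and 39 reads in MNK-3, 36 in ILC2 and 30 in NK. The levels were 4.50 CPM (3.83 to 5.26) and 3.02 CPM (2.14 to 4.12) in MNK-3, 4.74 CPM (3.32 to 6.56) in ILC2 and 6.25 CPM (4.21 to 8.92) in NK. From NK through ILC2 and MNK-3 replicate 1 to replicate 2, the intervals of neighbours in the order overlapped, but those of NK and replicate 2 did not. At 3.02 to 6.25 CPM, Il21 had the narrowest range of levels of the 6 genes read in all 4 libraries. Its annotated exons span 5259 bp, and per kb of exon it stood at 0.856 and 0.573 CPM in MNK-3, 0.901 CPM in ILC2 and 1.19 CPM in NK. An antisense gene, Gm12534, shares 469 bp of exon with Il21 and had 0 reads in every library. Il2 (ENSMUSG00000027720, chr3:37120523-37125959, minus strand) had 22 and 0 reads in MNK-3, 0 in ILC2 and 2 in NK, so it was at or near the limit of detection outside MNK-3 replicate 1, where it stood at 0.619 CPM (0.388 to 0.937). It overlaps Adad1, on the opposite strand, with 0 bp of shared exon.

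IL-3 and GM-CSF signal through a shared beta chain, and Il3 (ENSMUSG00000018914, chr11:54265303-54267277, minus strand) lies 15.6 kb from Csf2. Il3 had 34 and 0 reads in MNK-3, 6 in ILC2 and 0 in NK, or 0.957 CPM (0.663 to 1.34) in MNK-3 replicate 1 and 0.790 CPM (0.290 to 1.72) in ILC2. ILC2 thus had over 100 CPM of Csf2 and under 1 CPM of its neighbour, and per kb of exon the pair stood at 153 and 1.26 CPM. On the other flanks of the pair, P4ha2 had 47.5 and 66.3 CPM in MNK-3, 189 CPM in ILC2 and 8.95 CPM in NK, and Acsl6 had 16.6 and 9.43 CPM in MNK-3, 20.7 CPM in ILC2 and 9.37 CPM in NK.

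IL-10 restrains inflammation, and its gene gave a wide gap between the MNK-3 libraries. Il10 (ENSMUSG00000016529, chr1:131019845-131024974, plus strand) had 420 and 0 reads in MNK-3, 26 in ILC2 and 2 in NK. That is 11.8 CPM (10.7 to 13.0) in MNK-3 replicate 1, no detected level in replicate 2, 3.42 CPM (2.24 to 5.02) in ILC2 and 0.416 CPM (0.0504 to 1.504) in NK. Replicate 1 was 51.0-fold above the floor of 3 reads in replicate 2, and ILC2 lay between them. The exact 95% interval of the ratio of replicate 1 to replicate 2 started at 41.3. The sign of the difference of MNK-3 from ILC2 therefore turned with the library, with a log2 ratio of 1.65 with replicate 1 and -2.97 with replicate 2. Against NK the log2 ratio was 3.75 with replicate 1, and with replicate 2 no direction could be read, since 0 reads stood against 2. ILC2 exceeded NK by a count ratio of 8.22 (2.06 to 71.5), below the 10 CPM that the size rule asks for. Il19, the nearest coding gene on one side and a member of the IL-10 family, had 156 and 0 reads in MNK-3, 1 in ILC2 and 0 in NK.

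The comparison of MNK-3 with NK gave no call among the 10 genes: limma voom called 0 of 10, with 0 at an unadjusted p under 0.05, against 0.526% of all genes called in either direction and 0.518% called lower. Il17a, Il2 and Il3 reached the filter's minimum in replicate 1 alone, so their tests support nothing here either. By size, 0 of 10 counted with both MNK-3 libraries, against 8.36% of all genes, and with replicate 1 alone 1 counted, Il10. The median log2 ratio was 0.82 over the 10 genes and 0.68 over all genes, and 7 of the 10 lay above 0. These values rest on replicate 1: with replicate 2 alone the median was -0.15 over the 10 genes and -0.07 over all genes, and 4 of the 10 (Il17a, Il17f, Csf2 and Areg) lay above 0. The widest ratios were 2.81 for Il10, 2.71 for Il17f and 1.91 for Areg, and Areg had 3.07 and 4.41 CPM in MNK-3 against 0.625 CPM in NK. The 95% intervals of the fit were wide, for example -5.94 to 10.4 for Areg and -5.23 to 4.68 for Csf2, and so spanned differences of many fold in either direction for these genes.

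The reads of the 10 genes in MNK-3 replicate 1 were set beside those of genes that no other library detected. Of 4913 genes with no read in replicate 2, ILC2 and NK, 74.9% had a read in replicate 1. Over all 4913, those without a read included, the median was 12.0 reads per kb of exon. The upper quartile was 27.3 and the 95th percentile 80.6. Il2 (19.2 reads per kb), Il9 (22.4), Il17a (24.8), Il6 (26.8) and Il21 (30.4) lay between the 63.6th and the 78.5th percentile of those genes, so their level in replicate 1 was within the common range of genes unread elsewhere. Il21 was nonetheless read in every library, with 39 reads in replicate 2, 36 in ILC2 and 30 in NK. In replicate 2 Il17a had 5 reads and Il6 and Il9 had 1 each, and in ILC2 Il6 had 996 and Il9 786. Il3 lay at the 91.6th percentile with 54.1 reads per kb. Il17f, Areg and Csf2 lay above the 95th percentile with 89.0, 89.7 and 139 reads per kb, and were also read in replicate 2. Il10 lay at the 99.5th percentile with 321 reads per kb and had no read in replicate 2. The part of the reads outside annotated genes in these levels was not tested. Il17a, Il2 and Il3 passed the filter on low counts through replicate 1 alone.

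**Figure D3:**
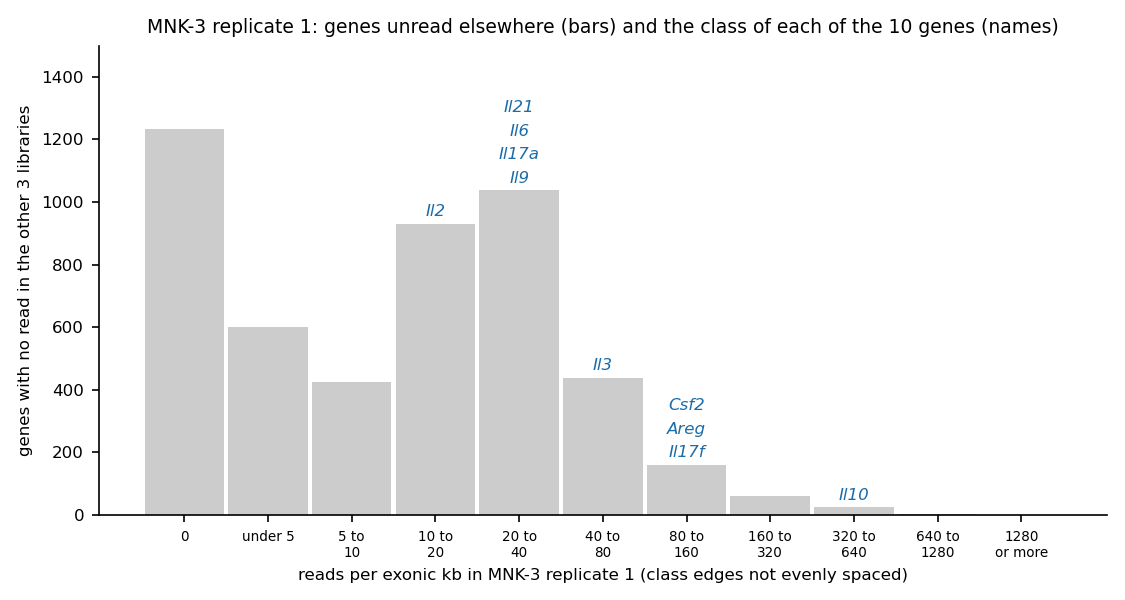
Number of genes with no read in MNK-3 replicate 2, ILC2 and NK (bars) by their reads per exonic kb in MNK-3 replicate 1, with each of the 10 genes named above the class it falls in. Il2, Il9, Il17a, Il6 and Il21 sit in the classes from 10 to 40 reads per kb, which hold many genes unread elsewhere, and Il10 sits in a class of 24.

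Cytokine messages with AU-rich elements are bound by tristetraprolin (Zfp36) and its relatives, and the 10 genes were scanned for the pentamer ATTTA, in DNA letters, and its longer form TTATTTATT. Each of the 10 had at least 1 pentamer in the 3′ UTR of its principal GENCODE transcript, while 7514 of 21067 genes had none. The density ran from 3.49 per kb in Il21 to 34.9 per kb in Il9, against a median of 1.18 per kb over 21067 genes, and 9 of the 10 were at or above the 91.8th percentile. The counts behind these densities were small in short UTRs: 3 pentamers in 86 bases for Il9 and 1 in 101 bases for Il3, against 9 in 317 bases for Csf2 and 10 in 1668 bases for Il6. Csf2 held 4 copies of the longer form, Areg, Il2 and Il21 held 1 each, and 7.37% of all genes held any. The longest runs of overlapping pentamers, in capitals, are shown with 4 bases on either side, since Csf2 and Areg are the genes whose levels differed by the test and Il2 was the other one with a run.
Csf2: aaatATTTATTTATTTATTTATTTAtttt
Areg: aataATTTATTTAatat
Il2: ctctATTTATTTAaata
The capitals lie at chr11:54247329-54247349 (minus strand), chr5:91148372-91148380 (plus strand) and chr3:37121059-37121067 (minus strand) on GRCm38. The Csf2 run holds 5 overlapping pentamers, and 0.973% of all genes have a run of 3 or more. The Areg and Il2 runs hold 2 each, and the share of all genes with a run of 2 was not computed. High density was not confined to genes at high level: Il9 and Csf2, over 100 CPM in ILC2, and Il17a and Il2, with no read in ILC2, were all above the 99th percentile.

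**Figure D4:**
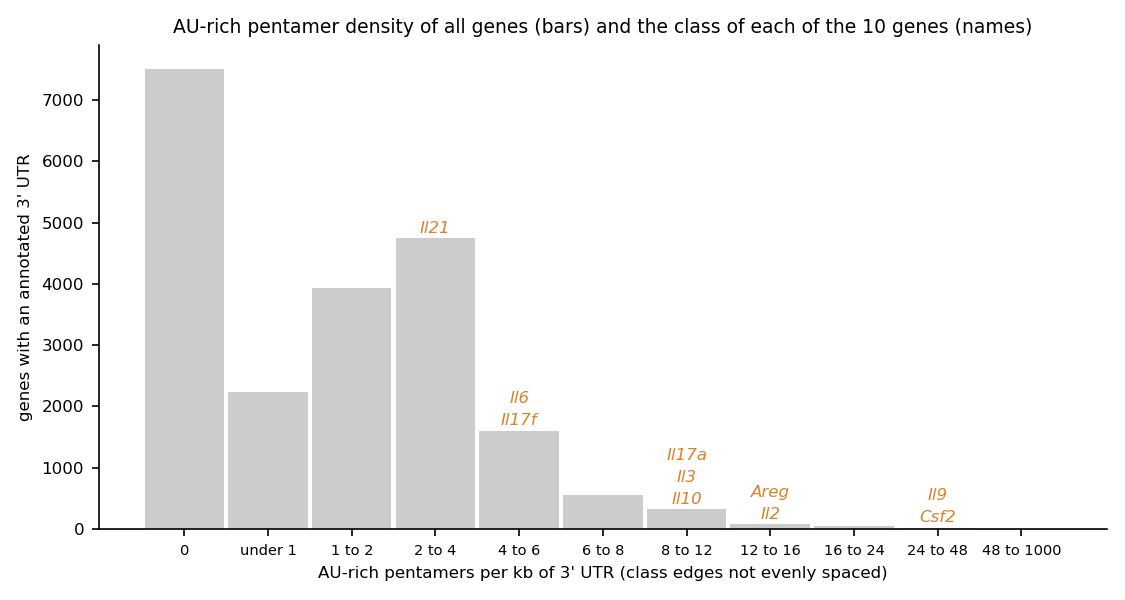
Number of genes with an annotated 3′ UTR (bars) by the density of AU-rich pentamers per kb, with each of the 10 genes named above its class. Il21 sits in the class from 2 to 4 per kb and the other 9 genes at 4 per kb or more, with Il9 and Csf2 in the class from 24 to 48.

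The lists that follow hold genes outside the 10, and all 13 calls made in them were lost when the libraries were scaled on abundant genes. Library totals lost 5 of the 13 (Il10ra, Egfr, Il5, Osm and Il1rl1), median-of-ratios factors 6 (Csf2rb, Lif, Rora, Prdm1, Batf and Zfp36) and thinned libraries 2 (Csf2rb and Egfr), so Fos and Il18r1 were the calls that held under 5 of 6 settings. Their counts are to be read against those over all genes: in MNK-3 over ILC2 6.41% by size, 0.34% called and a median of 0.78, in MNK-3 over NK 8.36%, 0.526% and 0.68, and in ILC2 over NK 7.12% by size and a median of -0.05. Sizes and medians in the lists use the mean of both MNK-3 libraries. Some of them rest on replicate 1, as marked below for Il6ra, Irf4 and Egf. Of 10 genes for proteins that bind or cleave such messages, Zfp36 fell in MNK-3 relative to NK in limma voom (log2 fold change -3.79, SE 0.95, adjusted p = 0.0165). It had 18.1 and 28.5 CPM in MNK-3, 44.1 CPM in ILC2 and 320 CPM in NK, and it was the 1 gene of this list called in that comparison. By size, 1 of the 10 decay genes was higher and 2 lower in MNK-3 than in NK (Zfp36 and Zfp36l2 lower, Zfp36l1 higher), with a list median of -0.30. Against ILC2 it was 0 higher and 1 lower, Zc3h12a (Regnase-1) with 25.5 and 32.8 CPM in MNK-3, 122 CPM in ILC2 and 79.5 CPM in NK, and 0 passed the test. Zc3h12a is known to cleave Il6 messages, and its part in the levels of Il6 was not tested.

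The receptors of the 10 proteins were described from a list of 16 genes. In MNK-3 against ILC2, 1 was higher and 6 lower by size, 0 rose and 2 fell in limma voom, and the list median was -0.85, against 2.64% of all genes lower by size, 0.332% called lower and a median of 0.78. Csf2rb, the signalling chain shared by the receptors of GM-CSF, IL-3 and IL-5, had 14.6 and 0.464 CPM in MNK-3, 227 CPM in ILC2 and 0.208 CPM in NK. It fell in MNK-3 relative to ILC2 with a log2 fold change of -5.10 (SE 1.23, adjusted p = 0.0154). Egfr, the receptor of amphiregulin, had 7.20 and 0.464 CPM in MNK-3, 168 CPM in ILC2 and 9.58 CPM in NK, and fell with a log2 fold change of -5.46 (SE 1.36, adjusted p = 0.0231). ILC2 therefore held both Csf2 and Csf2rb, and both Areg and Egfr, at over 100 CPM. Csf2ra, the alpha chain of the GM-CSF receptor, had 4.42 and 5.26 CPM in MNK-3, 10.0 CPM in ILC2 and 8.33 CPM in NK. It did not count by size in any comparison. Il9r had 17.6 and 0.928 CPM in MNK-3, 79.3 CPM in ILC2 and 1.04 CPM in NK, so it too was highest where its ligand was. Il6ra had 35.3 and 0.464 CPM in MNK-3, 0.790 CPM in ILC2 and 2.50 CPM in NK. It was the 1 receptor higher by size than in ILC2, through replicate 1 alone, so no direction for MNK-3 could be read. The signalling chain Il6st stood at 51.4 and 2.24 CPM in MNK-3, 43.7 CPM in ILC2 and 16.2 CPM in NK. Within MNK-3, Il6ra had 1255 and 6 reads and Csf2rb 518 and 6 reads.

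**Figure D5:**
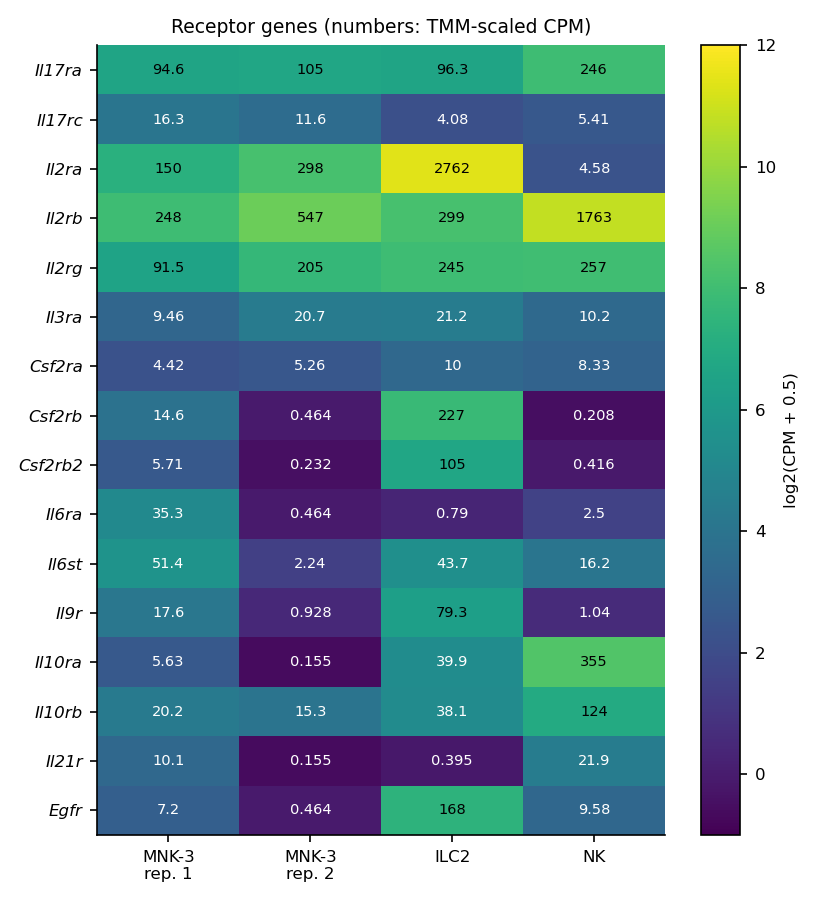
TMM-scaled CPM of the 16 receptor genes in MNK-3 replicates 1 and 2, ILC2 and NK, coloured by log2(CPM + 0.5). Il2ra, Csf2rb, Csf2rb2, Il9r and Egfr are brightest in ILC2, and Il2rb, Il10ra, Il10rb and Il21r in NK.

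In MNK-3 against NK, 2 of the 16 receptors were higher and 3 lower by size, 0 rose and 1 fell in limma voom, and the list median was -0.09. Il6ra, 1 of the 2 higher, rested on replicate 1, with 35.3 CPM there, 0.464 CPM in replicate 2 and 2.50 CPM in NK. The gene that fell was Il10ra, the ligand-binding chain of the IL-10 receptor, with 5.63 and 0.155 CPM in MNK-3, 39.9 CPM in ILC2 and 355 CPM in NK (log2 fold change -7.31, SE 1.75, adjusted p = 0.00895). ILC2 over NK gave 5 higher and 3 lower by size, with Il2ra, the alpha chain of the high-affinity IL-2 receptor, at 150 and 298 CPM in MNK-3, 2762 CPM in ILC2 and 4.58 CPM in NK. Il2ra was thus high in cells that had been given IL-2, in which Il2 itself had no read. Il21r had 10.1 and 0.155 CPM in MNK-3, 0.395 CPM in ILC2 and 21.9 CPM in NK, and Il17ra, the common IL-17 receptor chain, had 94.6 and 105 CPM in MNK-3, 96.3 CPM in ILC2 and 246 CPM in NK.

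Signals that induce the 10 genes enter through another set of receptors, of which 12 were listed. Il1rl1, the IL-33 receptor, had 4.28 and 0 CPM in MNK-3, 1783 CPM in ILC2 and 1.04 CPM in NK, and fell in MNK-3 relative to ILC2 (log2 fold change -11.2, SE 2.59, limma voom adjusted p = 0.0102). Il23r, which has a part in Il17a and Il17f induction, had 151 and 359 CPM in MNK-3 and no read in ILC2 or NK, and Il1r1 had 134 and 316 CPM in MNK-3, 1.84 CPM in ILC2 and 1.04 CPM in NK. Neither passed the test, with limma voom adjusted p-values of 0.689 and 0.903 against ILC2 and 0.840 and 0.9998 against NK. MNK-3 thus had over 100 CPM of both receptors in both libraries, and 5 to 6 CPM of Il17f. Against ILC2, 2 of the 12 were higher and 3 lower by size, 0 rose and 1 fell; against NK, 3 were higher and 2 lower, 0 rose and 1 fell. The gene that fell against NK was Il18r1, with 4.19 and 2.94 CPM in MNK-3, 31.2 CPM in ILC2 and 574 CPM in NK.

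Of 22 transcription factors and signal regulators of these genes, 3 were higher and 7 lower by size in MNK-3 than in ILC2, and 0 rose and 1 fell in the test, against 6.41% of all genes by size and 0.34% called in either direction. Batf, an AP-1 family factor, fell, with 8.84 and 10.1 CPM in MNK-3, 197 CPM in ILC2 and 29.4 CPM in NK (log2 fold change -4.41, SE 0.97, limma voom adjusted p = 0.00403). Irf4, its partner at composite elements, had 26.1 and 0.0773 CPM in MNK-3, 168 CPM in ILC2 and 2.08 CPM in NK; its difference from ILC2 missed the threshold (adjusted p = 0.175). Gata3, the type 2 master regulator, had 70.3 and 109 CPM in MNK-3, 1243 CPM in ILC2 and 122 CPM in NK. Against NK, 4 were higher and 4 lower by size, and 1 rose and 2 fell: Rora rose, with 932 and 2160 CPM in MNK-3, 608 CPM in ILC2 and 35.0 CPM in NK, and Fos and Prdm1 fell. Irf4, among the 4 higher, counted through replicate 1 alone, since in replicate 2 it lay below NK. Prdm1, which encodes the repressor Blimp-1, had 20.3 and 7.42 CPM in MNK-3, 95.3 CPM in ILC2 and 155 CPM in NK. Fos had 7.80 and 9.20 CPM in MNK-3, 3.95 CPM in ILC2 and 241 CPM in NK. The immediate early genes Fos, Jun and Junb stood highest in NK, at 241, 790 and 748 CPM. Batf and Fosl2 stood highest in ILC2, at 197 and 234 CPM. The part of these factors in the levels of the 10 genes was not tested.

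Relatives of the 10 proteins were listed as 22 genes. Il5 had 2.93 and 0 CPM in MNK-3, 1634 CPM in ILC2 and no read in NK, and fell in MNK-3 relative to ILC2 (log2 fold change -11.5, limma voom adjusted p = 0.0120). The IL-6 family members Osm and Lif also fell: Osm had 5.60 and 0.541 CPM in MNK-3, 302 CPM in ILC2 and 15.6 CPM in NK (adjusted p = 0.00428), and Lif had 11.3 and 9.20 CPM in MNK-3, 242 CPM in ILC2 and 2.08 CPM in NK (adjusted p = 0.00382). In total 2 were higher and 4 lower by size in MNK-3 than in ILC2, with 0 called higher and 3 lower, and the list median was 0.95. Egf, 1 of the 2 higher, rested on replicate 1, with 21.1 CPM there, 2.94 CPM in replicate 2 and 2.50 CPM in ILC2. Against NK the list gave 2 higher and 1 lower by size and 0 called. Of the other ligands of the epidermal growth factor receptor, Hbegf had 17.5 and 32.5 CPM in MNK-3, 3.16 CPM in ILC2 and 3.96 CPM in NK, so its order was the reverse of that of Areg between MNK-3 and ILC2. Ereg and Btc, the coding genes on either side of Areg, had 1 and 4 reads in ILC2, where Areg had 864. The proteases and cofactors that release amphiregulin were read in every library: Adam17 had 117 and 227 CPM in MNK-3, 166 CPM in ILC2 and 117 CPM in NK, and Rhbdf2 had 26.1 and 29.998 CPM in MNK-3, 40.2 CPM in ILC2 and 4.16 CPM in NK.

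For the 5 genes that reached 10 CPM in a library, the genes nearest in pattern were found by the distance of log2(CPM + 0.5) over the 4 libraries. Il9 lay nearest to Ermn at 0.43 and Il6 nearest to Adgrg7 at 0.54, and Il6 was next nearest to Calca at 0.69. Calca, which encodes calcitonin gene-related peptide, had 2.05 and 0.387 CPM in MNK-3, 158 CPM in ILC2 and 0.416 CPM in NK. Csf2 lay nearest to Me1 at 1.07 and Areg to Itgb8 at 1.10, with Itgb8, an integrin chain that activates TGF-β, at 5.21 and 3.63 CPM in MNK-3, 70.4 CPM in ILC2 and 1.04 CPM in NK. Il10 lay nearest to Gm17322 at 0.67, Mmp12 at 0.78 and Slc7a4 at 0.78, and these 3 genes had 311 to 603 reads in MNK-3 replicate 1 and 1 or 2 in replicate 2.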

How the data were processed

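RNA was sequenced from 2 libraries of MNK-3, 1 of ILC2 and 1 of NK cells. Per the labels' protocols, total RNA with integrity numbers above 9 was made into stranded libraries with a SMARTer Pico kit and read as pairs of 38 bp. The submitters' processing notes name STAR 2.7.8a, HTSeq and the build mm10/GRCm38. The authors deposited whole-number read counts per gene without normalization (unit: other). The strand setting, the gene set and whether the 2 technical replicates named per experiment were pooled are not given in the sources used here. For MNK-3 31053 genes are listed and for ILC2 and NK 53465; the 30731 shared genes were used, which left out 0.0399% to 3.05% of gene reads per library. Entries that name no gene (26.6% and 76.5% of reads in MNK-3, the higher in replicate 1, 25.9% in ILC2 and 49.3% in NK) were left out.

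The 10 genes and all lists were chosen with earlier results of these data known. CPM were scaled by trimmed means of M values (30% of ratios and 5% of abundances trimmed). Genes reaching 10 reads, scaled to library size, in 1 library and 15 in total were tested (25283). All 4 libraries entered 1 limma voom fit of 3 groups (limma 3.58.1 under R 4.3.3), with two-sided tests and a threshold of 0.05 on the Benjamini-Hochberg adjusted p. The MNK-3 pair gives the 1 residual degree of freedom, and the lone ILC2 and NK libraries are assumed to vary alike. The prior degrees of freedom were infinite, so each SE rests on the spread pooled over genes. Nothing states that the MNK-3 libraries came from separate cultures, so p-values measure the spread between these samples, which may be technical. For sizes, 0.5 CPM was added before log2. Of other lists, at most 4 genes per comparison with the widest ratios past the size rule were named, plus genes whose role bore on a member, chosen after their values were seen. Gene models are GENCODE M21 and promoters RefSeq GRCm38.p6 (9 of the 10 genes matched; Il10 did not). Alternatives were other scalings, no filter, other added CPM, thinning to the smallest library, fits on the compared cell types and leaving out either MNK-3 library.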

Additional observations from a re-analysis of the deposited data

How the results depend on the processing

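No paired analysis was possible because ILC2 and NK have 1 library each and MNK-3 alone has a second. The 10 genes by size in MNK-3 over ILC2 (4 lower) and ILC2 over NK (4 higher) kept their counts under every alternative run. In MNK-3 over ILC2, 2 of the 10 were called under every setting of the fit except scaling on abundant genes, where 0 were. In MNK-3 over NK, members called stayed at 0 in every fit, and members counted by size were 0 to 1 when either MNK-3 library was left out, the 1 being Il10 without replicate 2.

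Counts over all genes moved more. Genes called in MNK-3 over NK went beyond the 133 (2 higher, 131 lower) with library totals (590; 73 higher, 517 lower) and thinned libraries (564; 255 higher, 309 lower), and came to 87, all lower, on abundant genes. In MNK-3 over ILC2, against 86 (2 higher, 84 lower), they were 50 with median-of-ratios factors (all lower), 828 with library totals (228 higher, 600 lower), 244 on abundant genes (23 higher, 221 lower), 131 without the filter (17 higher, 114 lower) and 272 with thinned libraries (59 higher, 213 lower). The cause was not tested. Genes by size in MNK-3 over ILC2 ran from 1565 to 2503 when a MNK-3 library was left out, with 2503 without replicate 2, against 1620 with both. The median log2 ratio of all genes ran from 0.39 to 0.97 in MNK-3 over NK, 0.54 to 1.20 in MNK-3 over ILC2 and -0.26 to -0.05 in ILC2 over NK over the scalings. It rested more on the MNK-3 library: without replicate 1 it was -0.07 in MNK-3 over NK and 0 in MNK-3 over ILC2, and without replicate 2 it was 1.01 and 1.16. Leaving out a MNK-3 library leaves no residual degree of freedom, so no call was made then. Of the alternative log2 ratios of single genes, 215 stayed within the spread and 35 moved beyond it. Of the alternative fits of the 10 genes, 111 kept their call and 2 lost it (Areg and Csf2 on abundant genes). All 13 calls in the lists of decay genes, receptors, inducing receptors, regulators and relatives were lost in at least 1 fit. Calls of cell type markers outside those lists were not put through the alternatives. Depth limits NK most, where a count of 0 allows 0.625 CPM.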
